A study of Mus musculus with 15 samples.

Results

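The lungs of 3 mice fed phytosterols (the PS group) were compared with the lungs of 3 mice fed a control diet (the CS group), which are 6 of the 15 RNA-seq libraries of the series. The comparison took in every protein-coding gene with enough reads to test, 14534 of the 22046 listed, within a fit over 16717 of the 54532 genes of the count table. All 6 mice were male wild type C57BL/6J animals, an inbred laboratory strain, with a labelled age of 28 weeks. That age is in doubt, since the age at purchase and the feeding times in the study's methods add up to more. The PS diet carried 2% of a plant sterol mixture made up mainly of β-sitosterol, campesterol and stigmasterol, and the CS group ate the control feed. Each library came from 1 mouse and from a piece of frozen whole lung, so the values below are averages over all cells of that piece. Fewer cells of a type and less RNA per cell cannot be told apart in such data.

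Phytosterols are absorbed poorly and compete with cholesterol for uptake in the gut, and those that enter the blood reach tissues with lipoproteins. The lung holds a thin gas exchange surface of alveolar type I cells, the surfactant-making alveolar type II cells, a conducting airway lined by club and ciliated cells, a very dense capillary bed, a mesenchyme of fibroblasts and smooth muscle, and resident macrophages and lymphocytes. The results below follow these cell types and then the functions that cells share, leaving aside fatty acid and cholesterol metabolism.

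The label of lung tissue was borne out by its markers. Sftpc, the surfactant protein of alveolar type II cells, stood at 13892, 12878 and 13088 CPM in CS and 26850.0, 27052 and 16305 CPM in PS mice. Ager, an alveolar type I marker, stood at 1735, 2373 and 2196 CPM in CS and 2535, 2052 and 2624 CPM in PS mice. Total counts per library ran from 17934930 to 19396057. Markers of neighbouring tissue differed between the pieces. The liver transcript Alb stood at 59.5 CPM in CS replicate 1 and at 0.308 to 10.4 CPM in the other 5 lungs, the skeletal muscle actin Acta1 at 221 CPM in CS replicate 3 and at 0.0558 to 0.71 CPM elsewhere, and the heart myosin Myh6 at 142 CPM in PS replicate 1, at 0.0558 and 8.66 CPM in the other PS lungs, and at 28.5 to 56.1 CPM in the CS lungs. Transcripts of the mitochondrial genome made up 2.94% to 3.51% of the counts in the CS lungs and 6.13%, 7.28% and 3.69% in PS replicates 1, 2 and 3. CPM is the count scaled to library size with TMM factors, and in each list of values replicates 1, 2 and 3 stand in that order. Differences are given as log2 FC, the log2 fold change of PS over CS, ± its SE, with p-values from edgeR's quasi-likelihood test, Benjamini-Hochberg adjusted over the 16717 genes.

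Of the 14534 protein-coding genes tested, 657 rose (4.52%) and 638 fell (4.39%) on the PS diet at an adjusted p below 0.05. These shares are the background for the lists below. The lists were chosen with earlier results of these data known, so setting them beside these shares is descriptive. No list was tested against the background. Over the full set of 16717 genes tested, 802 rose (4.8%) and 740 fell (4.43%). At an unadjusted p of at most 0.05 the protein-coding counts were 2136 higher (14.7%) and 2183 lower (15%). The median change of the called genes was 0.93 on the log2 scale for those that rose and -0.97 for those that fell, and 279 and 302 of them changed at least 2-fold. The median over all protein-coding genes tested was -0.013. The smallest adjusted p was 0.00777.

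The number called depended on single mice. Without PS replicate 1 the protein-coding counts were 1438 higher and 1071 lower, and without PS replicate 3 they were 770 and 1179. Without CS replicate 1, CS replicate 2 or PS replicate 2 at most 2 genes rose and at most 17 fell. Without CS replicate 3, edgeR called 0 genes in either direction at the adjusted threshold, while 1742 were higher and 1447 lower at an unadjusted p of at most 0.05. All 657 and 638 genes called in the full set kept their direction, with an unadjusted p of at most 0.05, in each of the 6 fits that left out a library. They were picked from the full set, of which these fits are parts. Of 188 called genes followed singly, 39 were no longer called with the GC trend removed and 63 with limma on log2(FPKM + 1). For many of the genes below PS replicate 1 lay between the CS mice and the other PS mice.

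Genes that rose and genes that fell differed in the build of their transcripts. The 3′ UTR is the stretch behind the stop codon that holds most binding sites for microRNAs and many RNA-binding proteins. Its median length was 424 bases for the genes that rose, 932.5 bases for those not called and 1670 bases for those that fell. With the genes cut into 5 equal groups by 3′ UTR length, 7.78% rose and 2.51% fell in the shortest group, and 1.28% rose and 7.97% fell in the longest. GC content ran the other way, with medians of 54.3% for the genes that rose, 49.8% for those not called and 46.4% for those that fell. The genomic span from start to end had medians of 12214 and 45030 bases for genes that rose and fell, while the median number of exons was 10 in both.

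**Figure D1:**
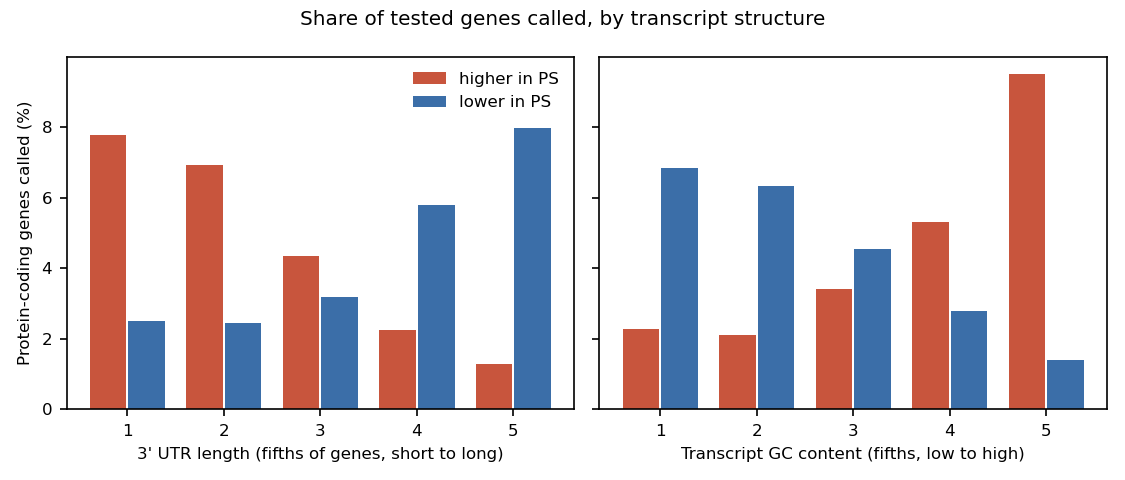
Share of tested protein-coding genes called higher (red) or lower (blue) in the PS lungs, in percent, by 5 equal groups of 3′ UTR length (left) and of transcript GC content (right). Calls in the 2 directions change places along both axes, from 7.78% higher and 2.51% lower at the shortest 3′ UTRs to 1.28% and 7.97% at the longest.

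Across genes, Spearman's rho with the log2 fold change was -0.26 for 3′ UTR length and 0.25 for GC content, over 14498 and 14521 genes that share the same 6 libraries. Each library carried its own part of these trends. The rho between 3′ UTR length and a gene's deviation from its mean was 0.28, 0.22 and 0.1 in the CS lungs and -0.19, -0.14 and -0.15 in the PS lungs. For GC content it was -0.24, -0.14 and -0.21 in the CS lungs and -0.015, 0.12 and 0.37 in the PS lungs, highest in PS replicate 3. For gene length it was 0.14, 0.14 and 0.045 in the CS lungs and -0.35, -0.00019 and 0.041 in the PS lungs, so PS replicate 1 stood apart. With each library's length trend removed the protein-coding counts were 895 higher and 702 lower. With each library's GC trend removed, 457 of the 657 and 421 of the 638 genes were still called, and the shares by 3′ UTR still ran from 6.3% higher and 2.27% lower to 1.76% higher and 5.28% lower. The part of library preparation in these trends was not tested.

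The 15 largest rises and the 15 largest falls, taken among called genes whose mean log2 CPM reached 1 and whose diets did not overlap, came from genes of many functions. Npff encodes a precursor of neuropeptide FF, and it was measured at 0.96, 0.771 and 1.47 CPM in CS and 2.78, 12.1 and 12.8 CPM in PS mice (log2 FC 3.11 ± 0.57, adjusted p = 0.0245). Gabre, the epsilon subunit of the GABA type A receptor, was at 1.87, 4.01 and 2.93 CPM in CS and 10.8, 24.2 and 31.7 CPM in PS mice (log2 FC 2.92 ± 0.43, adjusted p = 0.0178). Flt3l, the ligand that drives dendritic cell development, was at 8.24, 12 and 14.9 CPM in CS and 28.1, 69 and 66.5 CPM in PS mice (log2 FC 2.22 ± 0.36, adjusted p = 0.0198). In all 3 genes the lowest PS mouse was PS replicate 1 and still lay above every CS mouse. Reads of Npff and Flt3l can come from the readthrough genes Gm28047 and Gm45713, which share exons with them.

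Other large rises were those of Sult5a1, a sulfotransferase (5.16, 7.35 and 6.4 CPM against 13.3, 38.5 and 44.6 CPM), Lgals4, a galectin of epithelia (4.35, 7.56 and 9.44 CPM against 15.2, 36.2 and 44 CPM), and Itga10, a collagen-binding integrin (1.06, 2.47 and 2.61 CPM against 4.14, 9.49 and 13.2 CPM). Their log2 fold changes were 2.35, 2.16 and 2.13. Avil, an actin regulator that marks tuft cells, was at 0.404, 1.18 and 0.868 CPM against 1.42, 4.8 and 6.35 CPM (log2 FC 2.35, adjusted p = 0.0448), while the defining tuft cell markers Trpm5, Pou2f3 and Il25 were too low to test, at no more than 0.773 CPM in any lung. A3galt2, Msantd1, Mesp1, Acrbp, Mss51, Mapk1ip1 and Ovgp1 completed the rises, with log2 fold changes of 2.08 to 2.52, together with the clock repressor Ciart described below.

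The largest of these falls was that of Lrriq1, a gene of ciliated cells, at 4.95, 7.56 and 12.2 CPM in CS and 0.296, 0.167 and 0.938 CPM in PS mice (log2 FC -4.11 ± 0.59, adjusted p = 0.0172). Vcl encodes vinculin, which ties actin filaments to focal adhesions and cell junctions. It lies at chr14:20929398-21033676 (mm10), and it was measured at 54.5, 70.4 and 57 CPM in CS and 4.32, 6.14 and 10.3 CPM in PS mice (log2 FC -3.13 ± 0.30, adjusted p = 0.00777). Sacm1l, a lipid phosphatase of the endoplasmic reticulum, was at 32.1, 30.3 and 30.9 CPM in CS and 3.85, 3.63 and 6.84 CPM in PS mice (log2 FC -2.70 ± 0.26, adjusted p = 0.00777). The diets did not overlap in any of them. Vcl shares 2090 exonic bases with Ap3m1 on the opposite strand, and Sacm1l shares 1800 with Slc6a20b, and whether the counting used strand was not stated.

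Rarb, a retinoic acid receptor with a role in alveolar growth, was at 3.23, 2.93 and 4.23 CPM in CS and 0.355, 0.0558 and 1.05 CPM in PS mice (log2 FC -2.81 ± 0.68, adjusted p = 0.0406), and its longest antisense exon overlap is 1793 bases. Rnf125, a ubiquitin ligase that acts on the viral RNA sensors, was at 12.3, 10.4 and 9.12 CPM in CS and 0.71, 0.781 and 2.15 CPM in PS mice (log2 FC -3.12 ± 0.42, adjusted p = 0.0163). Spata18, which acts in the clearance of damaged mitochondria, was at 19, 25.8 and 37.5 CPM in CS and 3.2, 2.29 and 4.52 CPM in PS mice (log2 FC -3.03 ± 0.33, adjusted p = 0.01). All 3 were lower in every PS mouse than in any CS mouse. Srp54a, a part of the signal recognition particle, was at 4.35, 5.4 and 6.78 CPM against 0.473, 0.67 and 1.21 CPM and has the near-identical copies Srp54b and Srp54c, between which reads may be split. Prrg4, Mfsd4a, Slc10a5, Ankfn1, Wdr72 and Zfp871 fell with log2 FC of -2.71 to -3.62, and Pcdhac2 and Pcdhgb6 are taken up with the protocadherins.

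**Figure D2:**
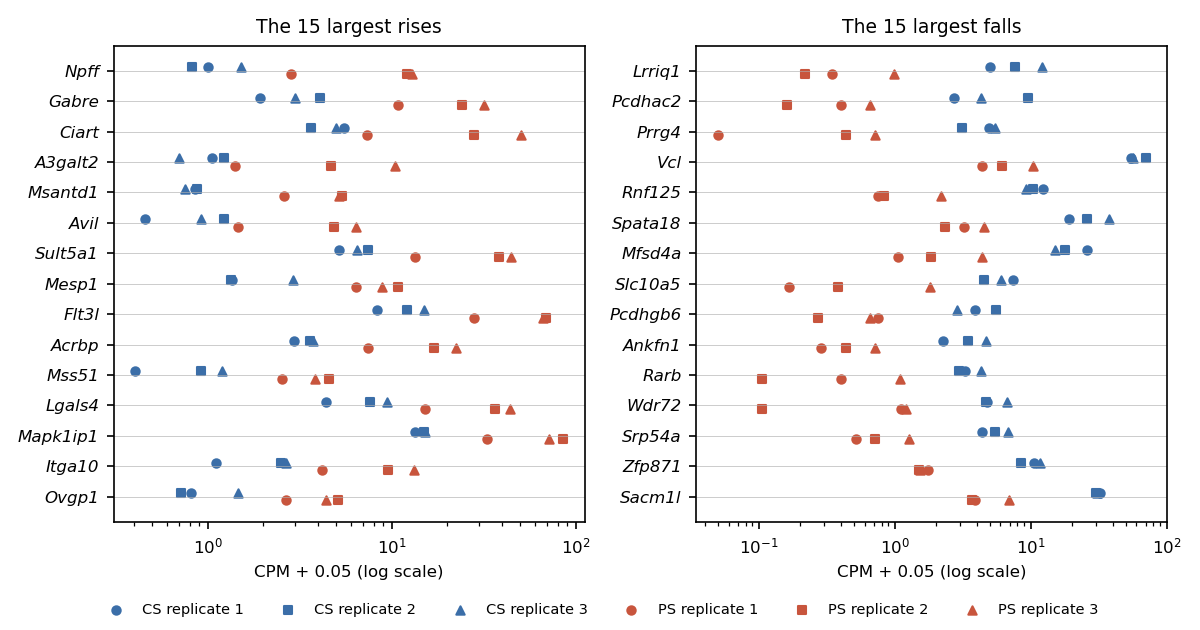
CPM plus 0.05 on a log axis in each mouse for the 15 largest rises (left) and falls (right), ordered by log2 fold change, with CS mice in blue and PS mice in red. No gene overlaps between the diets, as their choice required, and among the rises PS replicate 1 (red circle) is the lowest PS mouse in all 15 genes.

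In the alveolar epithelium, of 16 alveolar type II genes tested 0 rose and 1 fell, against 4.52% and 4.39% of all protein-coding genes tested, with a median log2 fold change of -0.20. The gene that fell was Etv5, a transcription factor that maintains these cells, at 113, 103 and 114 CPM in CS and 74.5, 79.4 and 67.8 CPM in PS mice (log2 FC -0.58 ± 0.13, adjusted p = 0.0369). Sftpc, given above, did not pass the test (log2 FC 0.82, adjusted p = 0.0764), although each PS mouse lay above each CS mouse, and neither did the lipid transporter Abca3 (adjusted p = 0.0549), where each PS mouse lay below. With the GC trend removed Abca3 was called (adjusted p = 0.0375). Sftpb was at 2241, 2304 and 2271 CPM in CS and 2339, 2323 and 2359 CPM in PS mice. Among 14 alveolar type I genes 0 rose and 1 fell, the axon guidance ligand Sema3e (100.3, 113 and 108 CPM against 66.6, 50.5 and 57.5 CPM; log2 FC -0.88, adjusted p = 0.0204), and Ager had an adjusted p of 0.553.

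Airway genes were spread widely within the PS group. Of 17 club and secretory genes tested 0 rose and 1 fell (background 4.52% and 4.39%), the cholecystokinin receptor Cckar, at 103, 87 and 132 CPM in CS and 38.4, 14.5 and 50.8 CPM in PS mice (log2 FC -1.63 ± 0.40, adjusted p = 0.0437). The log2 FC was below 0 in 15 of the 17, with a median of -0.55 that ran from -1.72 to -0.14 with 1 library left out. Scgb1a1, the main secretory protein of club cells, was at 41163, 41916 and 64296 CPM against 63918, 34995 and 46278 CPM (adjusted p = 0.973). Muc5b, a mucin of larger airways and glands, was at 59.3, 92.5 and 47.7 CPM in CS and 44.2, 0.223 and 6.18 CPM in PS mice (adjusted p = 0.405), so that PS replicates 2 and 3 were low and PS replicate 1 close to the CS mice.

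Ciliated cells move mucus along the airway. Of 20 genes of ciliated cell identity 1 fell, Lrriq1, and 0 rose. Of 64 genes of the motile cilium structure 3 fell and 0 rose (background 4.39% and 4.52%), against 15 lower and 4 higher at an unadjusted p of at most 0.05, with a median of -0.31. Dnah12, a dynein heavy chain, was at 25.2, 30.9 and 38.5 CPM in CS and 8.93, 9.71 and 17.2 CPM in PS mice (log2 FC -1.40 ± 0.28, adjusted p = 0.0283). Dnal1, a dynein light chain (log2 FC -0.95, adjusted p = 0.0412), and Spag16, a protein of the central pair (log2 FC -1.33, adjusted p = 0.0438), also fell, though with the GC trend removed their adjusted p was 0.0629 and 0.0632. The master regulator Foxj1 was at 118, 166 and 193 CPM in CS and 177, 48.7 and 115 CPM in PS mice (adjusted p = 0.454), overlapping between the diets. The outer arm dynein Dnah5 was at 66.5, 80.6 and 92.2 CPM in CS and 26.7, 6.25 and 38.1 CPM in PS mice (adjusted p = 0.0866). Of the 20 identity genes 16 had a log2 FC below 0, as did 41 of the 64 structural ones, and PS replicate 2 had the lowest summed level of both lists.

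Of 10 neuroendocrine genes tested, 1 fell (background 4.39%), the prohormone convertase Pcsk1, at 2.32, 1.64 and 2.82 CPM in CS and 0.651, 0.167 and 0.607 CPM in PS mice (log2 FC -2.24 ± 0.51, adjusted p = 0.0368). Of 8 basal cell genes tested, edgeR called 0, with 0 at an unadjusted p of at most 0.05.

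Endothelial genes moved in both directions. Of 20 general endothelial genes 3 rose and 1 fell (background 4.52% and 4.39%), with a median of 0.16. Robo4, an endothelial guidance receptor that stabilizes vessels, was at 64.9, 81.6 and 67.5 CPM in CS and 114, 141 and 143 CPM in PS mice (log2 FC 0.89 ± 0.16, adjusted p = 0.0217). Sox17, an arterial transcription factor, was at 49.5, 60.2 and 69.4 CPM in CS and 99.8, 126 and 106 CPM in PS mice (log2 FC 0.89 ± 0.17, adjusted p = 0.0255). Ramp2, the partner of the adrenomedullin receptor, was at 592, 632 and 588 CPM in CS and 1133, 963 and 1032 CPM in PS mice (log2 FC 0.79 ± 0.16, adjusted p = 0.0307). All 3 were about 1.73 to 1.86 times as high on the PS diet. Ramp2 shares 1103 exonic bases with Vps25 on the same strand. Kdr, the main receptor for VEGF, was at 403, 317 and 288 CPM in CS and 203, 119.6 and 199 CPM in PS mice (log2 FC -0.95 ± 0.23, adjusted p = 0.0412).

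The endothelial markers Pecam1 (adjusted p = 0.82) and Cdh5 (adjusted p = 0.547) overlapped between the diets, and of 25 arterial and venous genes edgeR called 0, with 1 higher and 3 lower at an unadjusted p of at most 0.05. Of 18 capillary genes 0 rose and 1 fell (background 4.52% and 4.39%). This was Glp1r, the receptor of glucagon-like peptide 1, at 10.9, 19.5 and 15.8 CPM in CS and 2.6, 2.07 and 3.81 CPM in PS mice (log2 FC -2.44 ± 0.32, adjusted p = 0.0141), about 5.44 times lower in the PS lungs.

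In the mesenchyme, where the background was 4.52% higher and 4.39% lower, 1 of 24 fibroblast genes fell, Scube2 (15.5, 20.1 and 14.5 CPM against 3.91, 4.3 and 9.99 CPM; log2 FC -1.46, adjusted p = 0.0421), and 0 rose, while Pdgfra was at 242, 257 and 228 CPM against 221, 271 and 255 CPM (adjusted p = 0.886). Of 21 pericyte and smooth muscle genes 1 rose, Cox4i2, the lung isoform of a cytochrome c oxidase subunit (57.9, 65.8 and 59.2 CPM against 102, 111 and 81.6 CPM; log2 FC 0.69, adjusted p = 0.0355), and 0 fell, though 7 were higher at an unadjusted p of at most 0.05. With the GC trend removed the adjusted p of Cox4i2 was 0.0772.

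Of 42 genes of collagens and elastic matrix tested, 4 rose and 2 fell (background 4.52% and 4.39%), with a median of 0.24. The fibrillar collagen genes Col27a1 (10.4, 11.7 and 15.7 CPM against 16.7, 49.9 and 43.7 CPM; log2 FC 1.55, adjusted p = 0.0407) and Col5a3 (3.08, 4.99 and 4.56 CPM against 5.74, 15.9 and 13.1 CPM; log2 FC 1.46, adjusted p = 0.0469) rose, as did the elastic fibre protein Mfap2 (log2 FC 0.74, adjusted p = 0.0367) and the tenascin Tnxb (log2 FC 0.96, adjusted p = 0.042). None of these 4 was called with the GC trend removed, where their adjusted p ran from 0.0509 to 0.0744. Col12a1, a collagen that decorates fibrils, was at 44.8, 35.7 and 39.3 CPM in CS and 13.5, 9.1 and 18 CPM in PS mice (log2 FC -1.56 ± 0.24, adjusted p = 0.0193). Col8a1, a short-chain collagen of vessels, was at 16.6, 20.0 and 17.5 CPM in CS and 8.58, 6.64 and 9.22 CPM in PS mice (log2 FC -1.15 ± 0.20, adjusted p = 0.0217). Col1a1, the main fibrillar collagen of scars, was at 138, 129.7 and 117 CPM against 108, 239.8 and 160.4 CPM (adjusted p = 0.321).

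The BMP and TGF-beta families are growth factors that bind paired serine kinase receptors and act through SMAD proteins. Of 47 genes of this signaling 1 rose and 7 fell, against 4.52% and 4.39% of all protein-coding genes tested, with a median of -0.26. Among the ligands, Bmp5 (chr9:75775364-75900310, mm10) was at 30.1, 24 and 28.1 CPM in CS and 3.67, 3.13 and 6.01 CPM in PS mice (log2 FC -2.68 ± 0.26, adjusted p = 0.00777), about 6.4 times lower on the PS diet. Bmp3, an antagonistic family member, was at 62.9, 57.4 and 51.8 CPM in CS and 32.9, 32.9 and 32 CPM in PS mice (log2 FC -0.82 ± 0.14, adjusted p = 0.0211). Tgfb2 was at 34.6, 28.5 and 25.2 CPM in CS and 15.8, 14.7 and 17.2 CPM in PS mice (log2 FC -0.89 ± 0.17, adjusted p = 0.0266). The 3 ligands were lower in each PS mouse than in any CS mouse. Bmp5 and Tgfb2 have antisense exon overlaps of 1878 and 124 bases with predicted genes.

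Downstream of the ligands, the receptor Acvr2a (35.3, 47.5 and 39.5 CPM against 24.6, 29.5 and 21.8 CPM; log2 FC -0.69, adjusted p = 0.0457), the TGF-beta mediator Smad2 (30.9, 30.1 and 31.2 CPM against 19.2, 17.2 and 20.7 CPM; log2 FC -0.69, adjusted p = 0.0319) and the shared partner Smad4 (82.3, 88.7 and 86 CPM against 59.1, 52 and 65.5 CPM; log2 FC -0.54, adjusted p = 0.0455) fell. The BMP inhibitor Grem1 fell as well, at a low level (1.01, 1.49 and 2.23 CPM against 0.296, 0.391 and 0.386 CPM; log2 FC -2.11, adjusted p = 0.0346). Smad1, which carries BMP signals, rose (33.9, 36.1 and 34.2 CPM against 51, 59.8 and 48.2 CPM; log2 FC 0.61, adjusted p = 0.0395). With the GC trend removed Acvr2a and Smad4 were not called (adjusted p = 0.069 and 0.0629). Of 49 genes of Wnt and Notch signaling edgeR called 0, with 5 higher and 13 lower at an unadjusted p of at most 0.05, and with the GC trend removed it called 1 higher and 4 lower. Notch2 (log2 FC -0.62, adjusted p = 0.0539) and Notch4 (log2 FC 0.68, adjusted p = 0.0549) lay on opposite sides of 0, and Notch2 was among those called with the trend removed (adjusted p = 0.0398).

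Epithelial junctions hold cells together through cadherins, which catenins and plakins link to the cytoskeleton. Of 37 genes of junctions and epithelial adhesion 1 rose and 5 fell, where 4.52% of all protein-coding genes tested rose and 4.39% fell, with a median of -0.22. Ctnnb1, which encodes β-catenin, was at 652, 630.1 and 591 CPM in CS and 309, 225 and 379 CPM in PS mice (log2 FC -1.04 ± 0.21, adjusted p = 0.0288). The desmosome cadherin Dsg2 was at 16.6, 17.6 and 19.6 CPM in CS and 8.58, 5.81 and 9.38 CPM in PS mice (log2 FC -1.18 ± 0.22, adjusted p = 0.0255). Desmoplakin, Dsp, was at 63.6, 64.4 and 70.7 CPM in CS and 29.7, 20.5 and 44 CPM in PS mice (log2 FC -1.08 ± 0.25, adjusted p = 0.0383). These 3 genes of adhesion were lower in every PS mouse. The transcription factor Grhl2 (log2 FC -0.65, adjusted p = 0.0402) and the claudin Cldn8 (log2 FC -1.96, adjusted p = 0.0475) fell too, both above the threshold once the GC trend was removed (0.0506 and 0.0616). The catenin Ctnnd1 rose (106, 99.7 and 97.9 CPM against 159, 143 and 137 CPM; log2 FC 0.54, adjusted p = 0.0417), and it shares 4482 exonic bases with the gene model Gm28635 on the same strand. E-cadherin itself, Cdh1, was at 369, 308 and 325 CPM against 343, 245 and 287 CPM (adjusted p = 0.475).

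Protocadherins are a large cadherin family best known for cell recognition between neurons. Of 25 tested 5 fell and 0 rose, against 4.39% lower among all protein-coding genes tested, with a median of -0.48. Pcdh17 was at 67.9, 61.8 and 57.7 CPM in CS and 27.3, 19.3 and 31.6 CPM in PS mice (log2 FC -1.26 ± 0.20, adjusted p = 0.0193). Pcdh18 was at 42.8, 36 and 36.7 CPM in CS and 27.3, 20.1 and 23.1 CPM in PS mice (log2 FC -0.71 ± 0.17, adjusted p = 0.0383). The adjusted p of Pcdh18 was 0.0518 with the GC trend removed. The clustered genes Pcdhgc3 (14.8, 14.2 and 11.3 CPM against 1.54, 1.56 and 3.75 CPM), Pcdhgb6 (3.84, 5.5 and 2.82 CPM against 0.71, 0.223 and 0.607 CPM) and Pcdhac2 (2.68, 9.56 and 4.23 CPM against 0.355, 0.112 and 0.607 CPM) had log2 fold changes of -2.55, -2.97 and -3.91. Members of these clusters share their last exons, so reads there cannot be tied to a single member.

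**Figure D3:**
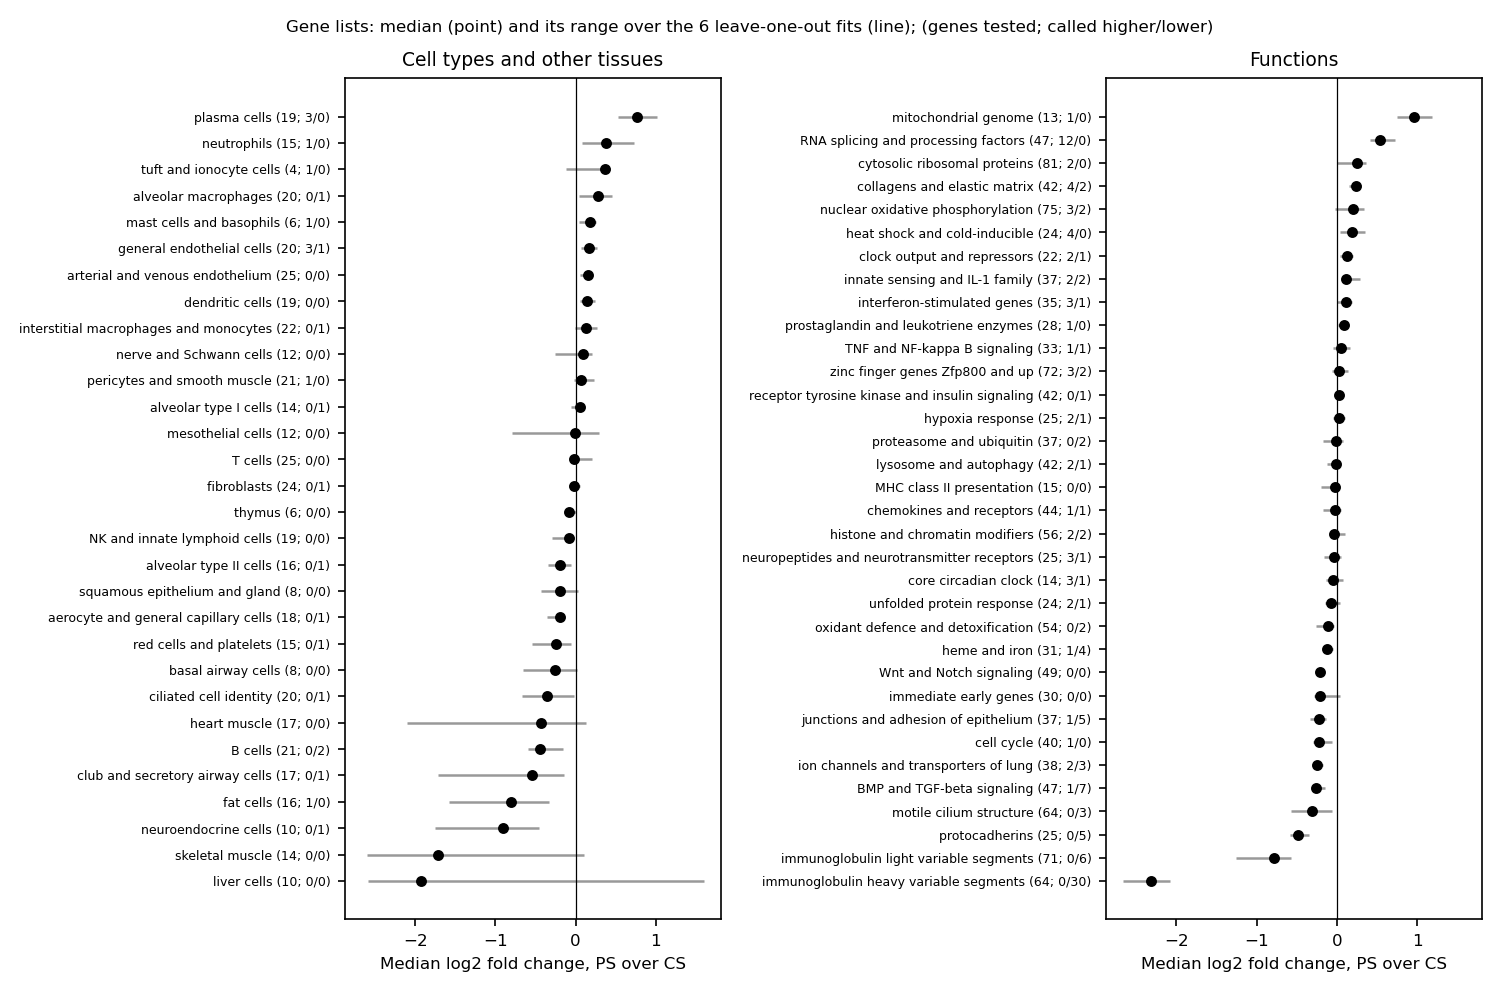
Median log2 fold change of the tested members of each gene list (point) and its range over the 6 fits that left out a library (line), for cell types and other tissues (left) and functions (right), with the number of genes tested and those called higher and lower in brackets. Heavy variable segments lie lowest among the functions (-2.31), the mitochondrial genome (0.96) and splicing factors (0.54) highest, and the lists of liver, skeletal muscle and heart genes have ranges that cross 0.

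The 4 lists of myeloid cells each had at most 1 called gene in a direction, where 4.52% of all protein-coding genes tested rose and 4.39% fell. Of 20 alveolar macrophage genes 0 rose and 1 fell, Plet1 (28, 31.9 and 35.8 CPM against 18.2, 19 and 21.9 CPM; log2 FC -0.70, adjusted p = 0.037), and Marco was at 8.24, 4.16 and 2.88 CPM against 6.21, 4.35 and 2.87 CPM. The list as a whole leaned the other way, with 14 of the 20 log2 fold changes above 0 and a median of 0.27. At an unadjusted p of at most 0.05, 5 of its genes were higher and 1 lower. Of 22 genes of interstitial macrophages and monocytes 0 rose and 1 fell, Adgre1, which encodes the F4/80 antigen (20.2, 15.1 and 14.7 CPM against 10.7, 8.37 and 9.38 CPM; log2 FC -0.81, adjusted p = 0.0448), while the complement gene C1qa had an adjusted p of 0.134. Neither Plet1 nor Adgre1 was called with the GC trend removed (adjusted p = 0.0585 and 0.0648). Of 15 neutrophil genes, 12 of them with a log2 FC above 0 and with a median of 0.37, 1 rose and 0 fell. This was Csf3r, the receptor of the granulocyte growth factor G-CSF, at 35.7, 28.5 and 40.2 CPM in CS and 63.4, 84 and 70.5 CPM in PS mice (log2 FC 1.06 ± 0.18, adjusted p = 0.0204), whereas the granule gene S100a8 was at 103, 26.3 and 96.1 CPM against 139, 123 and 46.8 CPM (adjusted p = 0.638), overlapping between the diets. Of 19 dendritic cell genes edgeR called 0, with 3 higher and 0 lower at an unadjusted p of at most 0.05, the chemokine Ccl17 among them (4.5, 5.6 and 5.48 CPM against 15.9, 13.2 and 6.18 CPM; log2 FC 1.17, adjusted p = 0.0588).

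In T cells edgeR called 0 of 25 genes, with 1 higher and 1 lower at an unadjusted p of at most 0.05, and Cd3e was at 4.7, 3.55 and 3.26 CPM against 4.2, 6.14 and 3.7 CPM. In NK and innate lymphoid cells it called 0 of 19, with 0 higher and 2 lower at that p. Of 21 B cell genes tested 0 rose and 2 fell (background 4.52% and 4.39%), with 7 lower and 0 higher at an unadjusted p of at most 0.05 and a median of -0.45. Cxcr5, the receptor that guides B cells into follicles, was at 16.2, 9.97 and 8.2 CPM in CS and 4.97, 3.41 and 3.48 CPM in PS mice (log2 FC -1.53 ± 0.31, adjusted p = 0.0301). Bank1, a B cell scaffold protein, was at 9.91, 5.86 and 7.49 CPM in CS and 2.72, 3.57 and 3.31 CPM in PS mice (log2 FC -1.27 ± 0.28, adjusted p = 0.0346). The B cell markers Cd79a and Ms4a1 did not pass, with an adjusted p of 0.734 for Cd79a and 0.0867 for Ms4a1.

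An antibody chain is encoded by a variable segment, which binds the antigen and differs between B cell clones, joined to a constant region, which sets the class. Of 185 heavy variable segments listed 64 were tested, and 0 rose while 30 fell, with a log2 fold change below 0 in 63 of the 64 and a median of -2.31. Of all genes tested 4.43% fell. Their summed level was 346, 273 and 512 CPM in the CS mice and 88.4, 41.6 and 112 CPM in the PS mice, that is 377 ± 123 (SD, n = 3) against 80.8 ± 35.9 (SD, n = 3). Ighv14-3 was at 11.9, 11.4 and 10.3 CPM in CS and 1.48, 1.12 and 1.32 CPM in PS mice (log2 FC -3.09 ± 0.25, adjusted p = 0.00777). Ighv9-3 was at 11.3, 16.8 and 19.1 CPM in CS and 2.96, 1.56 and 1.88 CPM in PS mice (log2 FC -2.88 ± 0.32, adjusted p = 0.01). Ighv1-50 was at 8.69, 5.09 and 9.01 CPM in CS and 0.473, 0.781 and 1.1 CPM in PS mice (log2 FC -3.26 ± 0.40, adjusted p = 0.0125). For the kappa light chain, 6 of 68 variable segments fell and 0 rose, with a median of -0.81. Of 3 lambda variable segments edgeR called 0, with 0 higher and 1 lower at an unadjusted p of at most 0.05, and they summed to 99.5 ± 38.8 CPM (SD, n = 3) in the CS and 103 ± 22.7 CPM (SD, n = 3) in the PS mice. The annotation does not class these segments as protein-coding, so they stand outside the counts above.

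Of 11 constant regions tested 1 rose and 0 fell, where 4.8% of all genes tested rose and 4.43% fell, and 10 of the 11 log2 fold changes were above 0. Of the 7 heavy constant regions edgeR called 0, with 4 higher and 0 lower at an unadjusted p of at most 0.05. The summed level of all constant regions was 6681, 3631 and 7290.1 CPM in the CS mice and 12942, 15836 and 9570.2 CPM in the PS mice, with no overlap between the diets. Iglc1, a lambda constant region, rose, at 90.8, 49.8 and 93.6 CPM in CS and 293, 301 and 145 CPM in PS mice (log2 FC 1.66 ± 0.33, adjusted p = 0.0286). Igkc, the kappa constant region, was at 2569, 1319.7 and 2622 CPM in CS and 5595, 7917 and 3364 CPM in PS mice (log2 FC 1.37 ± 0.37, adjusted p = 0.0502), and with the GC trend removed its adjusted p was 0.0469. Igha (log2 FC 0.77, adjusted p = 0.0749) and Ighg1 (log2 FC 2.34, adjusted p = 0.053) also had higher values in each PS mouse without passing. The segments are short and many have near-identical copies, and a read that fits several is counted for none or for one of them depending on settings that were not stated.

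Plasma cells secrete antibody. Of 19 genes on their list, constant regions included, 3 rose and 0 fell, where 4.8% of all genes tested rose and 4.43% fell, with 12 higher and 2 lower at an unadjusted p of at most 0.05 and a median of 0.77. Beside Iglc1 these were Derl3, which exports misfolded proteins from the endoplasmic reticulum (5, 3.75 and 5.26 CPM against 8.05, 16.2 and 15 CPM; log2 FC 1.48, adjusted p = 0.0301), and Fkbp11, a folding enzyme of secretory cells (3.64, 2.93 and 3.75 CPM against 8.58, 8.09 and 6.35 CPM; log2 FC 1.16, adjusted p = 0.0334). Jchain, the joining chain of secreted IgA and IgM, was at 1019, 592 and 1136 CPM in CS and 1409, 1667 and 1281 CPM in PS mice (log2 FC 0.67, adjusted p = 0.121). Sdc1, which epithelia express as well as plasma cells, was at 238, 217 and 243 CPM against 193, 121 and 164 CPM (adjusted p = 0.0905).

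**Figure D4:**
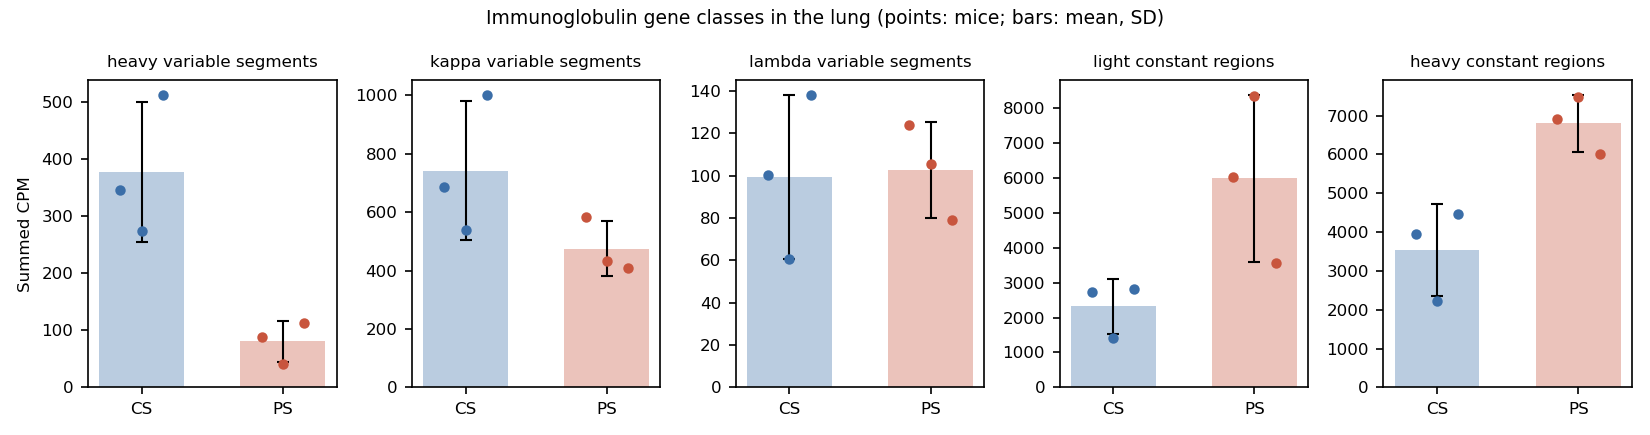
Summed CPM of immunoglobulin gene classes in the lungs of the CS (blue) and PS (red) mice, with each mouse as a point, the mean as a bar and the SD as an error bar (n = 3). Heavy variable segments were 377 against 80.8 CPM on average, lambda variable segments 99.5 against 103, and heavy constant regions 3547 against 6796, and the difference between the classes was not tested.

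Genes of innate sensing and the interleukin-1 family gave 2 rises and 2 falls among 37 tested (background 4.52% and 4.39%). Tlr9, the sensor of bacterial DNA in endosomes, was at 1.77, 1.49 and 1.57 CPM in CS and 0, 0.0558 and 0.221 CPM in PS mice (log2 FC -4.01 ± 0.70, adjusted p = 0.0217). Tlr8, a sensor of single-stranded RNA, was at 2.27, 1.59 and 1.95 CPM in CS and 0.533, 0.502 and 0.662 CPM in PS mice (log2 FC -1.77 ± 0.38, adjusted p = 0.0329). Both were low in level, and Tlr9 had 0 counts in PS replicate 1. Gsdmd, the pore protein of pyroptosis, was at 42, 41 and 40.6 CPM in CS and 56.2, 82.8 and 83.4 CPM in PS mice (log2 FC 0.85 ± 0.18, adjusted p = 0.0314). Nod1, a sensor of bacterial cell walls, was at 75.4, 78.4 and 70.7 CPM in CS and 93.4, 129 and 127 CPM in PS mice (log2 FC 0.64 ± 0.16, adjusted p = 0.0427). The call on Nod1 was lost with the GC trend removed (adjusted p = 0.0698), and Tlr4 had an adjusted p of 0.0582.

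Of 35 interferon-stimulated genes 3 rose and 1 fell (background 4.52% and 4.39%), with a median of 0.11. Oas2, which makes the activator of RNase L, was at 17.2, 14.6 and 22.9 CPM in CS and 30.3, 54.6 and 57.1 CPM in PS mice (log2 FC 1.38 ± 0.27, adjusted p = 0.0272). Stat2, the transcription factor downstream of the type I receptor, was at 51.3, 43.8 and 45.8 CPM in CS and 61.8, 116 and 106 CPM in PS mice (log2 FC 1.01 ± 0.23, adjusted p = 0.0354). Xaf1 was at 30.4, 25.2 and 30.7 CPM against 49.2, 46.2 and 39 CPM (log2 FC 0.64, adjusted p = 0.0424). Rsad2, the antiviral enzyme viperin, went the other way, at 10.8, 12.3 and 16.4 CPM in CS and 6.69, 3.68 and 6.24 CPM in PS mice (log2 FC -1.25 ± 0.28, adjusted p = 0.0364). Of the 35 members 24 had a log2 FC above 0 and 11 below. Of 33 genes of TNF and NF-kappa B signaling 1 rose, the adaptor Traf1 (67.7, 54.9 and 72.8 CPM against 94.8, 146 and 154 CPM; log2 FC 1.02, adjusted p = 0.03), and 1 fell, Ikbkg, the regulatory subunit of the IKK complex (61.7, 63.5 and 71 CPM against 41.2, 31.6 and 45.6 CPM; log2 FC -0.73, adjusted p = 0.0378), while Tnf was at 2.38, 0.72 and 1.3 CPM against 3.08, 2.12 and 1.38 CPM. Ikbkg was not called with the GC trend removed (adjusted p = 0.0558), and it shares 418 exonic bases with G6pdx on the opposite strand. Of 44 chemokines and receptors Ackr2, a scavenger of inflammatory chemokines, rose (log2 FC 0.61, adjusted p = 0.0475) and Cxcr5 fell. Of 15 genes of MHC class II presentation edgeR called 0, with 1 higher and 1 lower at an unadjusted p of at most 0.05.

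The circadian clock is a feedback loop in which ARNTL and CLOCK switch on their own repressors, the PER and CRY proteins and the nuclear receptors NR1D1 and NR1D2, by binding E-box elements. The time of day at which lungs were taken was not given in the sources used here. Of 14 core clock genes 3 rose and 1 fell, and of 22 outputs and repressors 2 rose and 1 fell (background 4.52% and 4.39%), with Per1 on both lists. The promoters of 3 of these genes hold the E-box CACGTG, and they are shown because they carry the motif by which the loop's activators act. The sequences are from RefSeq on GRCm38.p6 and run from 250 bases before to 50 bases after the start of transcription, with the E-box in capitals.
Ciart, minus strand, chr3:95882179-95882478: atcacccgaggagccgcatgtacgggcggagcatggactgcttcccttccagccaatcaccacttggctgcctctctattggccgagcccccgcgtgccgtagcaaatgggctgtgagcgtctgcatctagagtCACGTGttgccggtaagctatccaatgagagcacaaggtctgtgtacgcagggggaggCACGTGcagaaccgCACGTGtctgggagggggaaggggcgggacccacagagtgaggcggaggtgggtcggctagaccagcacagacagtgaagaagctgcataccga
Per1, plus strand, chr11:69098699-69098998: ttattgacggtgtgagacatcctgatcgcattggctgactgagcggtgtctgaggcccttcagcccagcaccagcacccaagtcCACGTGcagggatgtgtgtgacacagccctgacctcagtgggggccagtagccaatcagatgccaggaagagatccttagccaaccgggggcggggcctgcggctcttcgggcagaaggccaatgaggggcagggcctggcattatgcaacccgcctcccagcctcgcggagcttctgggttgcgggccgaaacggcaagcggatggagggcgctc
Cry1, minus strand, chr10:85185005-85185304: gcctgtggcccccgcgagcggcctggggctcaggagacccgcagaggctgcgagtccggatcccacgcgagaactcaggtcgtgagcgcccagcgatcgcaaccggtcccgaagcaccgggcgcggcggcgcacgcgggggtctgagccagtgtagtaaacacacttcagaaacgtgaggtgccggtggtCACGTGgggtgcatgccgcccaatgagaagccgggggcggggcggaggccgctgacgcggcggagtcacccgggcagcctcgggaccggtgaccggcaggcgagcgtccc
CACGTG is its own reverse complement, so 1 match stands for both strands. It was found in 7.15% of all 32851 promoters, and 8.09% of 27025 genes have it in at least 1 promoter. Ciart holds it 3 times, and Per1 and Cry1 each hold it once. The single promoters of Nr1d1, Nr1d2 and Nfil3 and the second one of Per1 hold no match in this window. The D-box TTATGTAA, which 0.938% of promoters and 1.11% of genes hold on either strand, was found in none of the promoters of the 6 genes.

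Of the repressors of the loop Ciart, Nr1d1, Nr1d2 and Per1 rose and Cry1 fell. Ciart, which represses ARNTL and CLOCK, was at 5.46, 3.6 and 4.94 CPM in CS and 7.34, 28.1 and 50.8 CPM in PS mice (log2 FC 2.62 ± 0.62, adjusted p = 0.0448). Nr1d1 was at 16.8, 20.9 and 18.6 CPM in CS and 24.9, 52.9 and 59.8 CPM in PS mice (log2 FC 1.29 ± 0.30, adjusted p = 0.037). Nr1d2 was at 31.4, 33 and 33.8 CPM in CS and 48.1, 59 and 64.3 CPM in PS mice (log2 FC 0.80 ± 0.15, adjusted p = 0.0264). Per1 was at 58.4, 102 and 74 CPM in CS and 116, 160.0 and 168 CPM in PS mice (log2 FC 0.92 ± 0.23, adjusted p = 0.0417). In all 4 the diets did not overlap and PS replicate 1 was the lowest PS mouse. A stretch of 58.1% of the Ciart transcript is near-identical in the predicted gene Gm9176. Cry1 went the other way, at 43.5, 33 and 37.5 CPM in CS and 25.3, 20.8 and 19.9 CPM in PS mice (log2 FC -0.79 ± 0.17, adjusted p = 0.0332). With the GC trend removed the adjusted p of Per1 was 0.0598.

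Of the other clock genes, Nfil3, which represses the targets of DBP, fell, at 27.5, 21.1 and 18.8 CPM in CS and 12.1, 12.1 and 15.2 CPM in PS mice (log2 FC -0.78 ± 0.20, adjusted p = 0.0465). Arntl was at 29.9, 36.7 and 40.8 CPM against 26.2, 25 and 30.9 CPM (log2 FC -0.39, adjusted p = 0.161) and Clock at 108, 103 and 92.2 CPM against 81.8, 85.5 and 77.4 CPM (log2 FC -0.31, adjusted p = 0.148), neither of them past the threshold. Dbp was at 1.92, 1.8 and 2.71 CPM against 2.96, 5.41 and 6.29 CPM (log2 FC 1.19, adjusted p = 0.0659) and Per2 at 16.4, 22.4 and 19.7 CPM against 23.1, 41.8 and 53.4 CPM (log2 FC 1.02, adjusted p = 0.0549).

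Of 47 genes of RNA splicing and processing 12 rose and 0 fell, where 4.52% of all protein-coding genes tested rose and 4.39% fell. The list had 42 of 47 log2 fold changes above 0 and a median of 0.54. SR proteins bind exons and recruit the splicing machinery. Srsf7 was at 91.4, 89.7 and 98.4 CPM in CS and 146, 171 and 179 CPM in PS mice (log2 FC 0.83 ± 0.14, adjusted p = 0.0204). Srsf6 was at 146, 146 and 166 CPM in CS and 219, 330.3 and 339.8 CPM in PS mice (log2 FC 0.96 ± 0.19, adjusted p = 0.0294). Srsf11 was at 91.7, 97.7 and 111 CPM in CS and 139.6, 250.5 and 250.3 CPM in PS mice (log2 FC 1.09 ± 0.23, adjusted p = 0.0318). The CLK kinases phosphorylate SR proteins, and Clk1 (200.1, 235 and 302 CPM against 339, 591 and 491 CPM; log2 FC 0.95, adjusted p = 0.0446), Clk2 (27.7, 32.1 and 33.5 CPM against 40.8, 70.1 and 70.6 CPM; log2 FC 0.96, adjusted p = 0.0369) and Clk4 (58.9, 62.6 and 80.2 CPM against 93, 160.4 and 163 CPM; log2 FC 1.05, adjusted p = 0.0347) all rose.

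The others that rose were the splicing regulator Tra2a (log2 FC 1.02, adjusted p = 0.0294), the U1 partners Luc7l (log2 FC 0.83, adjusted p = 0.0412) and Prpf39 (log2 FC 0.95, adjusted p = 0.0413), Rbm25 (log2 FC 0.90, adjusted p = 0.0469), Pnisr (log2 FC 1.23, adjusted p = 0.0471) and the RNA-binding protein Hnrnph1, at 265, 243 and 268 CPM in CS and 314, 599 and 668 CPM in PS mice (log2 FC 1.03 ± 0.26, adjusted p = 0.0455). In all 12 genes PS replicate 1 was the lowest PS mouse and lay above every CS mouse. The SR genes Srsf1, Srsf2, Srsf3 and Srsf4 overlapped between the diets, with log2 fold changes of 0.19, 0.082, 0.068 and -0.28. With the GC trend removed 11 of the 47 were called higher and 0 lower, Rbm25 and Hnrnph1 no longer among them (adjusted p = 0.051 and 0.0536).

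**Figure D5:**
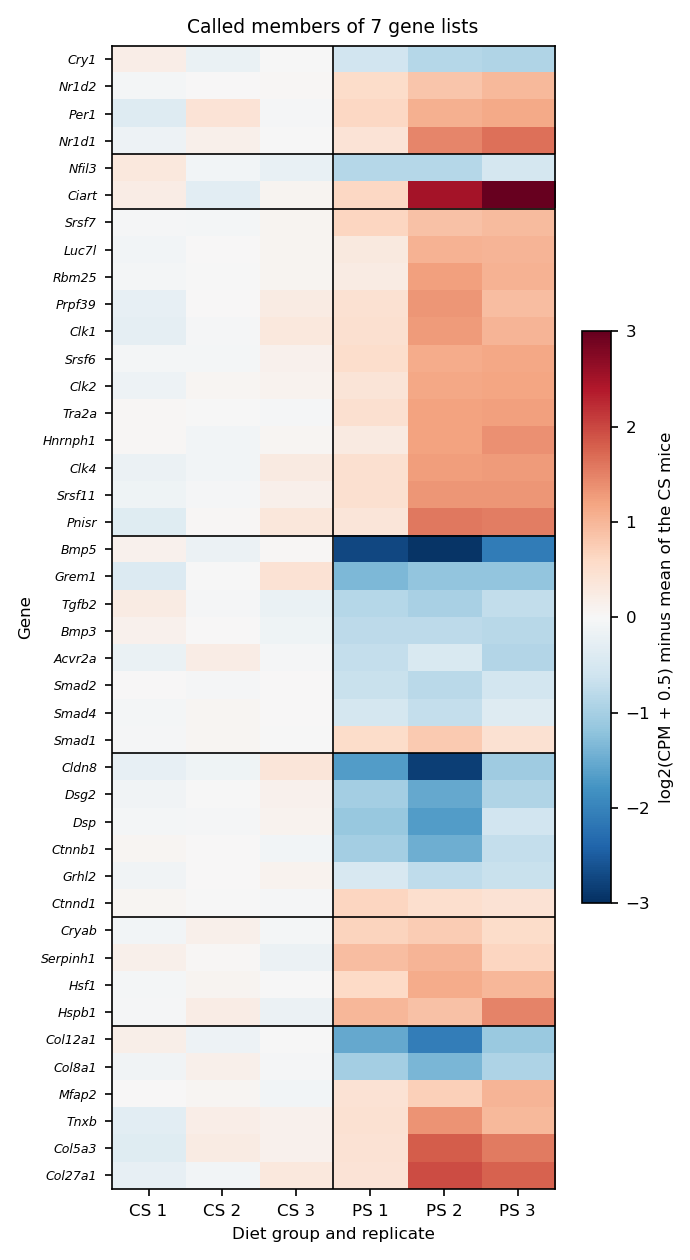
Called members of 7 gene lists, as log2(CPM + 0.5) minus the mean of the CS mice, in each mouse (columns), with lines between the lists, which are from the top the core clock, clock outputs, splicing, BMP and TGF-beta signaling, junctions, heat shock, and collagens. The splicing genes are all higher in the PS mice and most strongly in PS replicates 2 and 3, while 5 of the 6 junction genes are lower.

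Of 24 heat shock and cold-inducible genes 4 rose and 0 fell, against 4.52% higher among all protein-coding genes tested, with a median of 0.18. Hspb1, a small heat shock protein, was at 112, 135 and 102 CPM in CS and 229, 212 and 323 CPM in PS mice (log2 FC 1.13 ± 0.20, adjusted p = 0.0218). The master regulator Hsf1 was at 32.5, 36.4 and 33.6 CPM in CS and 51.6, 74.1 and 68.5 CPM in PS mice (log2 FC 0.92 ± 0.17, adjusted p = 0.0243). The collagen chaperone Serpinh1 was at 326, 299 and 258 CPM in CS and 555, 597 and 462 CPM in PS mice (log2 FC 0.87 ± 0.17, adjusted p = 0.0287). Cryab also rose (log2 FC 0.66, adjusted p = 0.036), though not with the GC trend removed (adjusted p = 0.0508), and Hspa8 was at 1418, 1376 and 1285 CPM against 2859, 2112 and 1917 CPM (log2 FC 0.76, adjusted p = 0.0518). In the unfolded protein response 2 of 24 rose, Ddit3 (log2 FC 0.78, adjusted p = 0.0314) and Manf (log2 FC 0.54, adjusted p = 0.049), and 1 fell, Dnajc3 (log2 FC -0.77, adjusted p = 0.0403), which was not called with the GC trend removed (adjusted p = 0.0678). Of 25 hypoxia genes the oxygen-regulated transcription factor Hif1a fell, at 70.8, 58.3 and 58.2 CPM in CS and 39, 32.3 and 38.3 CPM in PS mice (log2 FC -0.77 ± 0.15, adjusted p = 0.0286), while Pfkfb4 (log2 FC 0.65, adjusted p = 0.0409) and Ankrd37 (log2 FC 1.19, adjusted p = 0.046) rose, Pfkfb4 not with the GC trend removed (adjusted p = 0.0678). Of 30 immediate early genes edgeR called 0, with 0 higher and 4 lower at an unadjusted p of at most 0.05.

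Heme is made in a chain of enzymes that starts with an ALAS enzyme. Of 31 genes of heme and iron 1 rose and 4 fell (background 4.52% and 4.39%). Alas2, the form of red cell precursors, was at 44, 78.1 and 54.5 CPM in CS and 33.5, 23.6 and 17.6 CPM in PS mice (log2 FC -1.24 ± 0.28, adjusted p = 0.0354). Cpox, a later enzyme, was at 24.2, 23.1 and 25.8 CPM in CS and 14.4, 13.8 and 15.8 CPM in PS mice (log2 FC -0.73 ± 0.15, adjusted p = 0.0319). Hmox2, which breaks heme down, was at 40.1, 36.6 and 32.2 CPM in CS and 18.9, 17.4 and 23.4 CPM in PS mice (log2 FC -0.87 ± 0.17, adjusted p = 0.0279). The copper protein Cp, a ferroxidase, fell as well (344, 326 and 338 CPM against 245, 179.7 and 163 CPM; log2 FC -0.78, adjusted p = 0.0387), and Alad, an early enzyme of the chain, rose (33.6, 32.3 and 32.6 CPM against 47, 52.2 and 46 CPM; log2 FC 0.56, adjusted p = 0.0403), though not with the GC trend removed (adjusted p = 0.0863). Of the hemoglobin genes Hba-a1 was at 949, 1309 and 1146 CPM against 1764, 2039 and 871 CPM and Hbb-bs at 827, 805 and 689.9 CPM against 891, 461 and 238 CPM, both overlapping between the diets, and Alas2 was the 1 gene of 15 called on the list of red cells and platelets. In oxidant defence 2 of 54 fell, the thioredoxin reductase Txnrd1 (114, 86.2 and 107 CPM against 53.6, 43.5 and 69.6 CPM; log2 FC -0.88, adjusted p = 0.0353) and Ces1g (log2 FC -1.51, adjusted p = 0.0497), and 0 rose. With the GC trend removed the adjusted p of Ces1g was 0.058.

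Ion transport sets the fluid layer of the lung surface. Of 38 channels and transporters 2 rose, Gabre among them, and 3 fell (background 4.52% and 4.39%). Atp1b1, the beta subunit of the sodium pump, was at 349, 393 and 420.4 CPM in CS and 192, 140.3 and 258 CPM in PS mice (log2 FC -0.98 ± 0.22, adjusted p = 0.0368). The chloride channel Ano1 was at 41.1, 58.3 and 47.2 CPM in CS and 26.1, 26.7 and 28 CPM in PS mice (log2 FC -0.86 ± 0.16, adjusted p = 0.0264), and the bicarbonate transporter Slc4a4 had a log2 FC of -0.78 (adjusted p = 0.0398, or 0.0632 with the GC trend removed). Of receptors for transmitters, the muscarinic receptor Chrm3 fell (3.84, 3.8 and 4.67 CPM against 1.6, 1.51 and 1.49 CPM; log2 FC -1.42, adjusted p = 0.0294). It drives the contraction of airway smooth muscle.

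All 13 protein genes of the mitochondrial genome had log2 fold changes above 0, with a median of 0.96. Of these 1 rose, mt-Nd4, at 2451, 2244 and 2749 CPM in CS and 5182, 6615 and 3297 CPM in PS mice (log2 FC 1.02 ± 0.27, adjusted p = 0.0489), and 10 were higher at an unadjusted p of at most 0.05, among them mt-Cytb (4892, 5285 and 6292 CPM against 11313, 13617 and 7049 CPM; log2 FC 0.96, adjusted p = 0.0595). In both genes PS replicate 3 was nearest to the CS mice. Of 75 nuclear genes of oxidative phosphorylation 3 rose and 2 fell (background 4.52% and 4.39%). The complex I genes Ndufs7 (log2 FC 0.61, adjusted p = 0.0323), Ndufa11 (log2 FC 0.74, adjusted p = 0.0435) and Ndufb7 (log2 FC 0.68, adjusted p = 0.0468) rose, and Sdha of complex II (225, 215 and 216 CPM against 139, 96.8 and 155 CPM; log2 FC -0.75, adjusted p = 0.0427) and Atp5b of the ATP synthase (442, 562 and 546 CPM against 329, 185 and 300.1 CPM; log2 FC -0.93, adjusted p = 0.0426) fell. Of these 5 only Atp5b was called with the GC trend removed.

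Of 81 ribosomal protein genes 2 rose and 0 fell (background 4.52% and 4.39%), with a median of 0.25 that went to -0.0015 without PS replicate 1. Rpl28 was at 339, 358 and 379.8 CPM in CS and 795, 744 and 493 CPM in PS mice (log2 FC 0.92 ± 0.21, adjusted p = 0.0354). Rpl24 was at 1.72, 1.75 and 1.74 CPM in CS and 4.14, 4.07 and 11.6 CPM in PS mice (log2 FC 1.93 ± 0.45, adjusted p = 0.0374). It shares 484 exonic bases with Gm28037 and has near-identical stretches in 4 other genes, the longest 71.6% of its transcript, so its value is uncertain. Of the genes of receptor tyrosine kinase and insulin signaling 1 of 42 fell and 0 rose. Irs1, the docking protein of the insulin receptor, was at 5.71, 6.68 and 6.51 CPM in CS and 1.01, 0.726 and 1.66 CPM in PS mice (log2 FC -2.47 ± 0.35, adjusted p = 0.0172), and it has 2822 bases of antisense exon overlap with Gm9747.

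The following lists are to be read against the 4.52% of all protein-coding genes tested that rose and the 4.39% that fell. Of 56 genes of histone and chromatin modifiers 2 rose, the DNA demethylase Tet2 (log2 FC 0.91, adjusted p = 0.0498) and the methyltransferase Setd1a (log2 FC 0.79, adjusted p = 0.0398). The remodeler Chd2 (log2 FC -0.72, adjusted p = 0.0351) and the demethylase Kdm5a (log2 FC -0.51, adjusted p = 0.0462) fell, and of the 4 genes Tet2 alone was called with the GC trend removed. Of 37 genes of proteasome and ubiquitin 0 rose and 2 fell, the subunits Psmb7 (log2 FC -1.12, adjusted p = 0.0443) and Psmd1 (log2 FC -0.57, adjusted p = 0.0435), neither of them called with the trend removed. Of 42 genes of lysosome and autophagy 2 rose, the protease Ctsa (log2 FC 0.66, adjusted p = 0.0373) and the calcium channel Mcoln1 (log2 FC 0.58, adjusted p = 0.0394), and 1 fell, with an adjusted p of 0.0584 for Ctsa once the GC trend was removed. Of 40 cell cycle genes 1 rose, the mitotic kinase Plk1 (2.78, 2.26 and 3.04 CPM against 4.32, 7.42 and 8.77 CPM; log2 FC 1.34, adjusted p = 0.0402), and 0 fell. Of 28 prostaglandin and leukotriene enzymes 1 rose, Ptges3 (log2 FC 0.67, adjusted p = 0.0486), which also serves as a cochaperone. Of 6 mast cell and basophil genes tested 1 rose, the transcription factor Gata2 (log2 FC 0.74, adjusted p = 0.0447; adjusted p = 0.0666 with the GC trend removed). Of 12 mesothelial genes edgeR called 0, with 0 higher and 1 lower at an unadjusted p of at most 0.05. Of 97 zinc finger genes listed for a high number in their names (Zfp800 and up) 72 were tested, and 3 rose and 2 fell, among them Zfp871 with the large fall given above.

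Exons shared with other genes limit several of the values given, beside those already named for it. On the same strand, exonic overlaps of 100 bases or more were found for Setd1a (3523 bases with Gm49388), Chd2 (2628 with 1810026B05Rik), Itga10 (1739 with Gm42957), Ovgp1 (1023), Acrbp (975), Psmd1 (301), Slc10a5 (268), Hif1a (148) and Ddit3 (105). On the opposite strand, the longest such overlap was 1636 bases for Mfsd4a, 1559 for Pcdhgc3, 918 for Lipe, 892 for Hmox2 (with Cdip1), 804 for Sox17, 759 for Ctnnb1 (with Ulk4), 599 for Prpf39 and 575 for Atp1b1. It was 100 to 499 bases for Dsp, Ctsa, Acvr2a, Psmb7, Dnal1, Ankrd37, Hif1a, Dsg2, Alas2, Nr1d1, Plet1, Cryab, Psmd1, Kdm5a, Cpox, Mapk1ip1, Rpl28, Grhl2, Rbm25, Manf, Avil, Plk1, Chd2, Cxcr5 and Cp. Near-identical stretches in other genes, of at least 200 bases at 95% identity or more, were found for Rnf125, Etv5, Csf3r, Nr1d2, Hspb1, Tnxb, Rpl28, mt-Nd4, Mcoln1 and Ptges3 as well. In these the longest match covered part of the transcript, from 8.93% for Tnxb to 63.6% for mt-Nd4. Counts of these genes may hold reads of the other gene or lack reads of their own.

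Markers of other tissues varied from piece to piece. Of 14 skeletal muscle genes edgeR called 0, with 0 higher and 1 lower at an unadjusted p of at most 0.05. The summed level of that list was 37.2 to 587 CPM in the CS mice and 62.8 to 68.2 CPM in the PS mice, and its median of -1.72 went to 0.10 without CS replicate 3. For 10 liver genes it called 0, with 0 at an unadjusted p of at most 0.05, the sums were 1169.7 to 1657 CPM in the CS mice and 805 to 1642 CPM in the PS mice, and the median of -1.93 went to 1.60 without CS replicate 1. Heart muscle genes summed to 271 to 379 CPM in the CS mice and 68 to 672 CPM in the PS mice, with 0 of 17 called and 2 lower at an unadjusted p of at most 0.05. Fat cell genes summed to 399 to 741 CPM in the CS mice and 411 to 712 CPM in the PS mice, and Adipoq, the hormone of fat cells, was at 13.6, 19.4 and 2.01 CPM against 12.8, 0 and 0 CPM. Of 16 fat cell genes tested 1 rose, the lipase Lipe, and 0 fell (background 4.52% and 4.39%). The median of the fat list was -0.81, with 10 of the 16 log2 fold changes below 0. The part of these tissues in the diet response was not tested. Without CS replicate 1, the lung with the highest Alb, 1 protein-coding gene rose and 17 fell, and without PS replicate 1, the lung with the highest Myh6, 1438 rose and 1071 fell. The fit without CS replicate 3, the lung with the highest Acta1, is the one given above in which edgeR called no gene at the adjusted threshold.

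The same diets were also compared in the liver, and a fit over all 15 libraries tested whether the diet acted unequally on both tissues. Of 17696 genes tested 1 had a higher effect in the lung (0.00565%) and 3 a lower one (0.017%). These were Adck5 (1.98, adjusted p = 0.0498), the lincRNA 1810008I18Rik (-2.75, adjusted p = 0.0136) and the sterol genes Insig1 (-1.98, adjusted p = 0.0296) and Msmo1 (-2.58, adjusted p = 0.0296), where a value below 0 means a lower log2 effect in lung than in liver. With mouse as a block in the 6 animals that gave both tissues, edgeR called 0 in either direction, and the adjusted p of the 4 genes ran from 0.271 to 0.695.

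For 6 genes the estimates in both tissues, from the fit over 15 libraries, are set side by side here. The log2 effect was 1.25 (SE 0.30) in the lung and 1.31 (SE 0.25) in the liver for Nr1d1, 0.77 (SE 0.22) and 0.83 (SE 0.19) for Nr1d2, and -0.82 (SE 0.28) and -0.77 (SE 0.23) for Cry1. For Arntl it was -0.42 (SE 0.29) in the lung and -1.56 (SE 0.24) in the liver, a difference of 1.14 (SE 0.38, adjusted p = 0.341). For the splicing factor Srsf7 the effects were 0.80 (SE 0.37) and -0.064 (SE 0.31), and for Bmp5 -2.72 (SE 0.71) and -0.93 (SE 0.65). None of these differences passed the test. In this fit the liver effects of Nr1d1 (adjusted p = 0.0382) and Arntl (adjusted p = 0.0188) passed, those of the other 4 genes did not, and none of the lung effects of the 6 genes did (adjusted p of 0.161 for Nr1d1 to 0.517 for Arntl).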

How the data were processed

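Total RNA from frozen lung was enriched for poly(A) RNA and sequenced from libraries made with random hexamer priming. The authors deposited read counts per gene, and per the submitters' notes used HISAT2 2.0.5, featureCounts 1.5.0-p3, DESeq2 1.20.0 and mm10. FPKM values, also deposited by the authors, equalled the counts over gene length and a factor per library. Counting strand and gene model were not given in the sources used here. GENCODE M21 matched 54409 of 54532 gene IDs. Counts were filtered (filterByExpr), TMM scaled and fitted with edgeR 4.0.16 in R 4.3.3, without a replicate block, and tested on simulated data. DESeq2 1.42.0 on counts, limma 3.58.1 on log2(FPKM + 1), GC or length trends removed by loess (span 0.3), other filters and leave-one-out fits were alternatives. Genes were named as the 15 largest called protein-coding rises and falls (mean log2 CPM of at least 1, no overlap, approved symbol), called members and up to 8 members per list by adjusted p, and the first 4 markers of cell type lists. A few uncalled genes were named after their values were seen. Members and lists were chosen with earlier results of these data known. Replicate numbers did not pair the lungs. The mice were of 28 weeks by the labels, an age in doubt since the feeding scheme in the study's methods ends later. Sequences came from RefSeq. A few genes are not reported here.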

Additional observations from a re-analysis of the deposited data

Results flagged for a closer look

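In the fit over lung and liver, 4 genes had a diet effect that differed between the tissues by the test of the difference itself. The difference, as the log2 effect in lung less that of liver, was -2.75 for the lincRNA 1810008I18Rik, -1.98 for Insig1, a brake on sterol synthesis, -2.58 for Msmo1, a sterol methyl oxidase, and 1.98 for Adck5. The lung effect of 1810008I18Rik was -2.49 (SE 0.30) and its liver effect 0.26 (SE 0.20). For Adck5 they were 1.204 (SE 0.25) and -0.78 (SE 0.20), for Insig1 -0.63 (SE 0.22) and 1.34 (SE 0.19), and for Msmo1 -0.43 (SE 0.29) and 2.14 (SE 0.26). With mouse as a block the differences were -2.75, -1.84, -2.66 and 1.85 in the order 1810008I18Rik, Insig1, Msmo1 and Adck5, with adjusted p-values (edgeR) of 0.271, 0.454, 0.271 and 0.695.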

How the results depend on the processing

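Over all lung genes, the counts of 802 higher and 740 lower became 1505 and 1439 with the DESeq2 Wald test, 1220 higher without a filter, and 495 higher with limma on log2(FPKM + 1). For protein-coding genes the DESeq2 Wald test gave 1210 higher and 1265 lower, and limma 368 higher. Leaving out 1 library gave 0 to 1752 higher and 0 to 1309 lower over all genes, and 0 to 1438 and 0 to 1179 for protein-coding genes, with 0 without CS replicate 3. The cause was not tested. The replicate block gave 817 higher and 806 lower, and 667 and 695 for protein-coding genes. Same-numbered lungs did not deviate together (correlations 0.0498, -0.0065 and 0.0988), so the numbers give no pairing. Removing the GC trend gave 712 higher and 582 lower. For lung less liver, 1 gene higher and 3 lower became 0 and 0 with mouse as a block, 73 and 116 with the DESeq2 Wald test, and 0 to 3 and 0 to 9 with 1 library left out.

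Of 188 called genes followed singly, 63 were no longer called with limma on log2(FPKM + 1), 58 with the replicate block and GC trend removed, 39 with the GC trend removed, 22 with the replicate block, 13 with the length trend removed and 13 without a filter. DESeq2, by its Wald test or its size factors, ended none of the 188 calls. Without CS replicate 1, 2 or 3 the calls lost were 178, 177 and 188, and without PS replicate 1, 2 or 3 they were 27, 184 and 35. No sign changed among the 188 in these fits. Among uncalled genes, log2 fold changes changed sign for Sftpb (-0.1593 with the GC trend removed, -0.1631 with replicate block and GC, -0.0005 with the length trend removed), Ager (-0.0304 and -0.0336 with GC, without and with the block), Scgb1a1 (0.0335, 0.0236 and 0.0353 under the same settings as Sftpb) and Pecam1 (0.0069 and 0.0043 under those of Ager). With 1 library left out the ranges were -0.2799 to 0.2551 for Scgb1a1, -0.1624 to 0.0042 for Pecam1, -0.0257 to 0.1123 for Pdgfra, -0.5037 to 0.323 for Marco and -0.305 to 0.1319 for Cd79a. List medians beyond 0.2 from 0 also changed sign, among them those of skeletal muscle (0.10 without CS replicate 3), liver (1.60 without CS replicate 1), heart (0.12 without PS replicate 3), ribosomal proteins (-0.0015) and nuclear oxidative phosphorylation (-0.027, both without PS replicate 1), immediate early genes (0.039 without CS replicate 1) and fat cells (0.11 with at least 10 counts in every library). With 3 mice a group, low genes such as Tlr9 rest on few counts.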
